A study of Mus musculus with 26 samples.

Results

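The glutathione transferases and the enzymes that make, recycle and cleave glutathione were followed in the initial segment (IS) and caput of the epididymis and in the testis of ArKI and WT mice. The genes were taken by name. They were every gene of the alpha, kappa, mu, omega, pi, theta and zeta classes of cytosolic, mitochondrial and peroxisomal transferases (*Gsta*, *Gstk*, *Gstm*, *Gsto*, *Gstp*, *Gstt*, *Gstz*), every microsomal transferase (*Mgst*), and *Gclc*, *Gclm*, *Gss*, *Gsr*, *Ggt5*, *Ggt6* and *Ggt7*. This gave 31 of the 23337 genes in the count tables, and each of the 31 was found by symbol in the GENCODE annotation of GRCm38.

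RNA-seq of whole tissue was done on 26 samples from males that were 3 months old, on a mixed C57Bl/6N; 129 hybrid background. The mice labelled ArKI carry a knock-in that is present in every cell, and the WT mice do not. There were 5 ArKI and 5 WT samples each of IS and caput, sequenced together, and 3 ArKI and 3 WT samples of testis, sequenced in another run. Tissue and run can therefore not be told apart wherever testis is set beside epididymis, and each genotype comparison stays within one run.

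Glutathione is a tripeptide that is held at high concentration in most cells. It is built from glutamate and cysteine by glutamate-cysteine ligase, whose catalytic subunit is GCLC and whose modifier subunit is GCLM, and glycine is then added by glutathione synthetase (GSS). Glutathione reductase (GSR) returns the oxidized form to the reduced one, and gamma-glutamyl transferases (GGT) at the cell surface begin its breakdown. The transferases join glutathione to reactive and foreign molecules, and in the epididymis this chemistry is known for guarding sperm in transit against peroxidation of their membranes.

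The counts summed to between 5829074 and 9770625 per IS sample, between 4125768 and 11913469 per caput sample and between 14077013 and 21376604 per testis sample. Levels are given as CPM, the counts relative to the library total, with TMM factors set over all 26 samples, and levels of different genes are ranked per kilobase of exon (RPKM). Sums and shares over several genes are of CPM and weigh longer genes more. A gene passed a comparison at an adjusted p below 0.05, by the quasi-likelihood test of edgeR and the Benjamini-Hochberg method over all genes tested. The study's own limits, an FDR below 0.01 in IS and caput or below 0.2 in testis with a fold change above 2, were counted beside it. The IS and the testis carried their markers, while those of the caput separated the segments less. The 5 caput principal cell genes summed to 47368 to 55739 CPM in WT IS and 60856 to 75437 CPM in WT caput. Of these genes 3 were higher and 2 lower in WT caput than in WT IS. The summed level of 6 genes of IS principal cells was 37263 to 40044 CPM in WT IS against 1954 to 5896 CPM in WT caput, and 11 sperm and late spermatid genes summed to 26783 to 32861 CPM in WT testis.

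Of the 31 genes, 26 had a promoter window in RefSeq, which covers 250 bases before to 50 bases after the start site. The antioxidant response element, the sequence read by NRF2 and its partners in many glutathione genes, was searched as TGACNNNGC on both strands and lies in 12.4% of 32851 mouse promoter windows and at 14% of the 27025 genes they belong to. Among the 26 genes it was found at 5, namely *Gclm*, *Gsta3*, *Gstm5*, *Gstm7* and *Mgst1*, and these stretches are shown because the genotype comparison below returns to each of these genes. Sequences are from RefSeq on GRCm38.p6, written 5′ to 3′ along the gene's strand, with the match in capitals, on whichever strand it lies.
Gclm: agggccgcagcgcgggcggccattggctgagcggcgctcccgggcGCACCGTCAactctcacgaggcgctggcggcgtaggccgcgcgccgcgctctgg
Gsta3: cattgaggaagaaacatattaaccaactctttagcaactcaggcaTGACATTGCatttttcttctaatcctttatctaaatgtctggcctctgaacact
Gstm5: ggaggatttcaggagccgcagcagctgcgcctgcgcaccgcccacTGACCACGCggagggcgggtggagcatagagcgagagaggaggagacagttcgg
Gstm7: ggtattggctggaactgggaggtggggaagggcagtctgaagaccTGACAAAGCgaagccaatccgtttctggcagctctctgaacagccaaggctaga
Mgst1: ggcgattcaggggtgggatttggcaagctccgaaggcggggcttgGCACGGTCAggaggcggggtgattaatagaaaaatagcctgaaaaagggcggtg
The stretch of *Gclm* lies at chr3:122245378-122245476 on the + strand and that of *Gsta3* at chr1:21240419-21240517 on the + strand. The stretches of *Gstm5* (chr3:107895767-107895865, + strand) and *Gstm7* (chr3:107931690-107931788, - strand) belong to one gene cluster, and that of *Mgst1* lies at chr6:138140426-138140524 on the + strand. Counted from the start site, the antioxidant match began at position -134 in *Gclm*, -121 in *Gsta3*, -42 in *Gstm5*, -129 in *Gstm7* and -56 in *Mgst1*. *Gstm7* and *Mgst1* have 2 windows each in RefSeq, of which 1 holds the match. For *Gstm7* that window belongs to the inner of its start sites, and the match lies downstream of the outer one, at the 5′ end of the annotated gene. A match of this kind is a run of letters and was not tested for binding.

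In WT mice the leading transferase of both epididymal segments differed from that of the testis. *Gstm7*, a mu-class enzyme, had the highest level per length in both epididymal segments, at 228 ± 7.94 RPKM (SD, n = 5) in IS and 627 ± 46.2 RPKM (n = 5) in caput. In WT IS it was followed by *Gstm2* (152 ± 8.33 RPKM), also of the mu class, and *Mgst1* (148 ± 6.37 RPKM), a membrane-bound transferase of the endoplasmic reticulum and mitochondria, and the ranges of these 2 overlapped. *Gstm1* came next at 92.4 ± 5.06 RPKM, below both. In WT caput the order was *Gstm7*, *Gstm1* (269 ± 20.1 RPKM), *Gstm2* (189 ± 7.27 RPKM), and then *Gstm5* (121 ± 5.14 RPKM) and *Mgst1* (116 ± 4.14 RPKM), of which the last 2 overlapped. In WT testis *Gstm5*, the mouse counterpart of human GSTM3 and long known from testis and brain, stood far above the rest at 1491 ± 147 RPKM (n = 3). The theta-class *Gstt4* (308 ± 22.7 RPKM) and *Gstm1* (290 ± 41.6 RPKM) followed with overlapping ranges, then *Gsto2* of the omega class (119 ± 4.37 RPKM). *Gstm7* made up 20.4 to 21.0% of all transferase CPM in WT IS, 33.96 to 37.6% in WT caput and 1.9 to 2.1% in WT testis, whereas *Gstm5* made up 50.2 to 56.6% in WT testis.

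**Figure D1:**
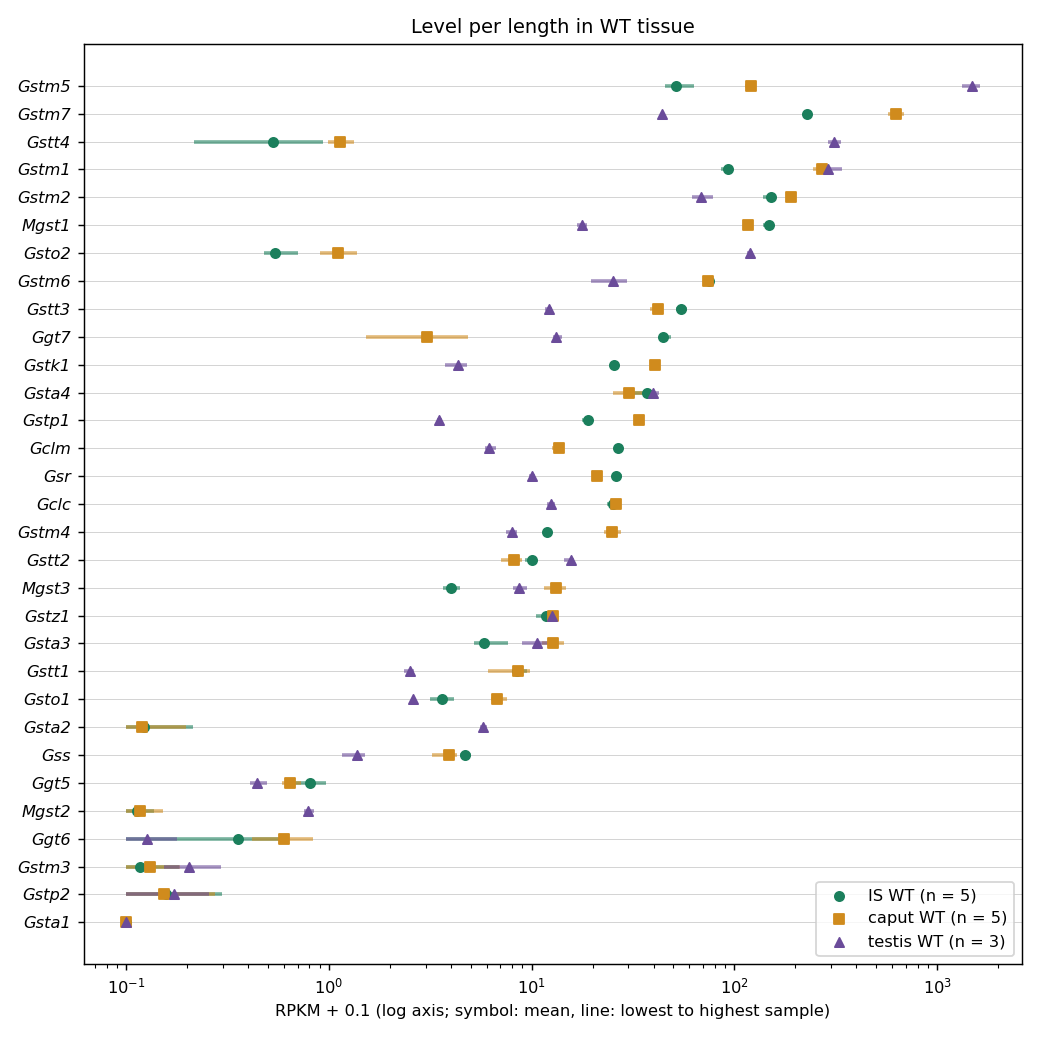
Level per length of the 31 genes in WT tissue, as RPKM plus 0.1 on a log axis, with a symbol for the mean of 5 IS, 5 caput or 3 testis samples and a line from the lowest to the highest sample. *Gstm5*, *Gstt4* and *Gsto2* lie far to the right in testis, and *Gstm7* leads in IS and caput.

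Between the epididymal segments of WT mice 24 of the genes were tested, and 12 were higher and 8 lower in caput than in IS. Over all 13787 genes 35.4% were higher and 35.8% lower. *Gstz1*, among those higher, lost its call in 9 of 17 alternative analyses, and *Gsta4*, among those lower, in 5 of 17. The mu class made up much of the caput side, with *Gstm1* (log2 difference 1.54 ± 0.05, SE), *Gstm7* (1.47 ± 0.05), *Gstm5* (1.23 ± 0.08), *Gstm4* (1.08 ± 0.07) and *Gstm2* (0.32 ± 0.05) higher there, while *Gstm6* did not pass (-0.01 ± 0.04, adjusted p = 0.87). *Mgst3* (1.75 ± 0.11), *Gsto2* (1.18 ± 0.24) and *Gsta3* (1.14 ± 0.10), an alpha-class enzyme, were higher in caput too. All 11 sperm and late spermatid genes, which like *Gsto2* are high in testis, were also higher in WT caput than in WT IS (median 2.48 on the log2 scale, summed level 257 to 405 CPM against 11.8 to 81.4 CPM), and their part in the *Gsto2* difference was not tested. The genes that build and recycle glutathione leaned to the IS. *Gclm* fell by 0.97 on the log2 scale from IS to caput (SE 0.04), *Gsr* by 0.31 (SE 0.05) and *Gss* by 0.25 (SE 0.08), while *Gclc* was at 0.05 ± 0.05 (adjusted p = 0.29). *Ggt7*, a member of the gamma-glutamyl transferase family, had the widest gap of all 24, at 138, 159, 141, 141 and 145 CPM in WT IS and 4.63, 7.34, 14.3, 15.5 and 5.98 CPM in WT caput (log2 difference -3.94 ± 0.25). In the same 5 caput samples the summed IS principal cell markers were 1954, 3306, 5750, 5896 and 2681 CPM, so the caput samples with more *Ggt7* were those with more IS marker RNA. In bulk tissue a smaller number of cells of one type and less RNA per cell cannot be told apart, here and in every comparison that follows.

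Most members differed between the testis and each segment, as did most genes of the tables. Against WT IS, 10 of 27 tested genes were higher and 16 lower in WT testis, where 49.4% of all 16402 genes were higher and 42.5% lower, and against WT caput 9 were higher and 16 lower, where the shares of all genes were 48.8% and 43.2%. *Gstt4* (log2 difference to IS 9.52 ± 0.12), *Gsto2* (8.14 ± 0.09) and *Gstm5* (4.95 ± 0.09) were far above the IS. *Gsta2* and *Mgst2* had at most 1 count in any WT IS sample, which fixes no fold, and measured 6.66 ± 0.28 and 2.56 ± 0.17 CPM in WT testis. Of the 7 genes of glutathione synthesis, recycling and breakdown, the 6 tested were lower in testis than in IS. *Gclm* fell by 2.04 on the log2 scale, *Gss* by 1.73, *Ggt7* by 1.67, *Gsr* by 1.30, *Ggt5* by 0.94 and *Gclc* by 0.92, while *Ggt6*, not tested, held at most 2 counts in any WT testis sample. Against caput *Ggt7* went the other way and was higher in testis (2.27 ± 0.26, adjusted p = 6.1e-06), and the other 5 were lower there too. The median of all genes lay at 0.19 (against IS) and 0.16 (against caput) on the log2 scale in these fits and differences are best read relative to it. *Gstz1* against IS and *Gstm1* and *Gsta4* against caput were higher in testis with TMM and changed sign with another scaling.

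In the IS, ArKI mice had more transferase RNA, and much of the increase lay in the mu class, whose genes summed to 949 to 1018 CPM in WT and 1427 to 1714 CPM in ArKI samples. The 31 genes together summed to between 2205 and 2340 CPM in the 5 WT samples and between 2832 and 3096 CPM in the 5 ArKI samples, with no overlap. Most of this rise lay in *Gstm7* alone, while *Gstm2*, also of the mu class, fell. Of 23 members tested, 7 were higher and 2 lower in ArKI, where 15% of all 13434 genes tested were higher and 14.6% lower. The median log2 fold change of the 23 was 0.03, and that of all genes -0.00. Past the study's limits there were 2 higher members, *Gstm5* and *Gstm7* (2.72% of all genes), and no lower one (1.32% of all genes) by edgeR, with none lower by more than 2-fold at an unadjusted p below 0.05. DESeq2 and limma-voom also placed 2 members past these limits in both directions together.

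*Gstm7* had the lowest adjusted p of the set. It measured 382, 371, 351, 365 and 355 CPM in the WT IS samples and 835, 826, 845, 717 and 785 CPM in the ArKI samples. Every ArKI sample stood far above every WT sample, and the spread within each genotype was small. The log2 fold change was 1.14 ± 0.05 (SE), that is 2.20-fold, with an adjusted p of 1.5e-12. The share of *Gstm7* among all transferase CPM moved from 20.4 to 21.0% in WT to 31.1 to 33.7% in ArKI.

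*Gstm5* was upregulated to a similar size but with wide spread among the ArKI mice. It measured 58.0, 70.2, 62.3, 58.2 and 80.8 CPM in WT IS and 133, 94.95, 217, 137 and 141 CPM in ArKI IS. The groups did not overlap, but ArKI sample 2 lay close to WT sample 5 and ArKI sample 3 lay far above the others. The log2 fold change was 1.13 ± 0.22 (adjusted p = 0.0048), and it was 0.94 without ArKI sample 3 (adjusted p = 0.0018). Its place past the study's limits was lost in 8 of 10 analyses that left out a single sample (all but those without ArKI sample 2 or WT sample 5) and with a replicate block (adjusted p = 0.0275). *Foxj1* and *Tekt1*, the 2 measured markers of ciliated cells of the efferent ducts, which lie next to the IS, both rose in ArKI IS. Their summed level was 24.9, 33.4, 30.3, 30.5 and 38.3 CPM in the WT samples and 68.0, 38.5, 140, 68.4 and 87.9 CPM in the ArKI samples, in the same sample order. The ArKI sample with least marker RNA had least *Gstm5* and the one with most had most. The summed leukocyte genes put the ArKI IS samples in the same order as *Gstm5*, at 276, 270, 423, 305 and 313 CPM. In WT IS, sample 5, with most *Gstm5*, had the lowest leukocyte sum (181 CPM). The caput principal cell genes were highest in ArKI IS sample 2 (66739 CPM) and lowest in ArKI IS sample 3 (42682 CPM). The part of any of these cells in the *Gstm5* difference was not tested.

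**Figure D2:**
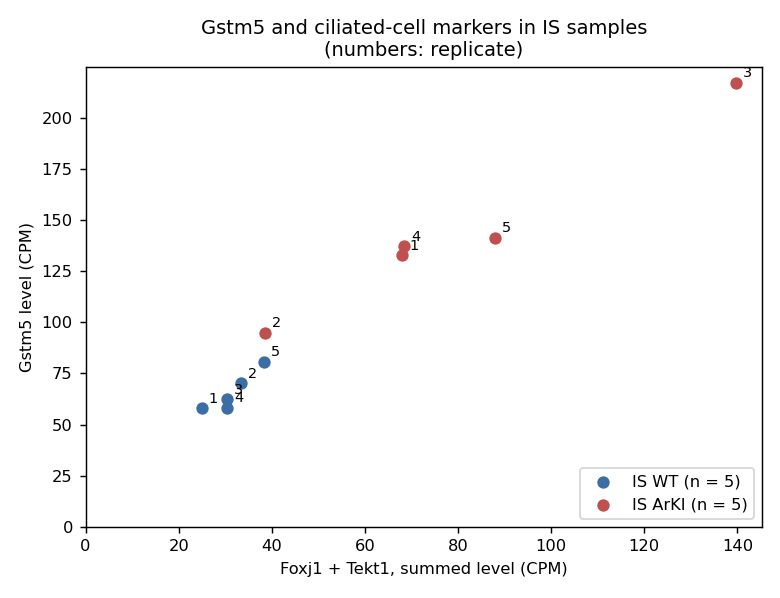
*Gstm5* level against the summed level of *Foxj1* and *Tekt1*, both in CPM, in the 5 WT (blue) and 5 ArKI (red) IS samples, numbered by replicate. ArKI sample 2, at 38.5 CPM of marker, lies beside WT sample 5, at 38.3 CPM, and ArKI sample 3 stands at the top right, with 140 CPM of marker and 217 CPM of *Gstm5*.

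Other mu-class genes in the IS moved both ways. *Gstm1* measured 145, 140, 133, 126 and 137 CPM in WT and 213, 192, 265, 185 and 212 CPM in ArKI, with no overlap (log2 fold change 0.66 ± 0.08, adjusted p = 7.6e-05). *Gstm6* rose from 149 ± 4.64 to 194 ± 11.9 CPM (0.39 ± 0.05, adjusted p = 3.2e-06). *Gstm2* went the other way and fell by 0.39 on the log2 scale (SE 0.06, adjusted p = 4.2e-05), from 255 ± 14.0 to 193 ± 18.6 CPM, with every ArKI sample below every WT sample. *Gstm4* was at -0.13 ± 0.08 and did not pass (adjusted p = 0.24).

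Outside the mu class, *Mgst1* and *Gsta3* rose in ArKI IS. *Mgst1* went from 298 ± 12.8 to 394 ± 19.4 CPM with no overlap (log2 fold change 0.41 ± 0.05, adjusted p = 1.2e-06). *Gsta3* went from 24.8 ± 4.48 to 37.8 ± 5.04 CPM (0.61 ± 0.11, adjusted p = 0.00088), and its groups overlapped through 1 high WT sample. The 14 members that did not pass lay between -0.13 and 0.23 on the log2 scale, among them all tested genes of the kappa, omega, pi, theta and zeta classes.

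The 2 subunits of glutamate-cysteine ligase, the first and controlling step of synthesis, went in opposite directions in ArKI IS. *Gclm* measured 161, 170, 167, 172 and 169 CPM in WT and 208, 197, 193, 199 and 199 CPM in ArKI (log2 fold change 0.25 ± 0.04, adjusted p = 9.1e-05). *Gclc* measured 92.1, 96.8, 97.0, 88.1 and 97.5 CPM in WT and 84.0, 78.1, 78.7, 78.8 and 85.0 CPM in ArKI, a fall by 0.22 on the log2 scale (SE 0.05, adjusted p = 0.0017). In neither gene did the groups overlap, although the changes were small. For the second enzyme of synthesis, *Gss* measured 29.1, 28.2, 25.5, 26.3 and 26.01 CPM in WT and 24.5, 25.9, 29.4, 29.6 and 28.4 CPM in ArKI (adjusted p = 0.79). *Gsr*, which recycles oxidized glutathione, measured 73.0, 69.7, 76.1, 71.0 and 68.3 CPM in WT and 76.1, 70.1, 87.4, 74.3 and 73.5 CPM in ArKI (adjusted p = 0.23). Both of these overlapped between genotypes.

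The 5 members whose promoter window holds the antioxidant element are the same 5 named above with their sequences, and all 5 were higher in ArKI IS. Of the 13 tested members with a window that lacks it, 2 were higher (*Gstm1* and *Gstm6*) and 1 was lower (*Gstm2*). In caput 2 of the 5 were higher (*Gstm7* and *Mgst1*), against 4 higher and 3 lower of 14 without the element, and in testis none of the 5 passed, against 0 higher and 2 lower of 17 without it, by edgeR. Over all genes tested, 14.8% of the 1665 with the element and 14.8% of the 7957 without it were higher in ArKI IS, and 14.7% and 14.8% were lower. In caput 13.3% of 1682 and 14.1% of 8129 were higher and 14.9% and 14% lower. In testis only 1.83% of 1859 and 1.8% of 9339 were higher, so the count of 0 among 5 carries no information. These counts rest on few genes that share sequence and chromosome, and they were compared after the changes were known.

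Several cell-type markers moved with genotype in the IS. All 4 smooth muscle genes fell (summed level 471 to 535 CPM in WT, 198 to 364 CPM in ArKI), as did 3 of 6 IS principal cell genes (37263 to 40044 CPM in WT, 29771 to 34982 CPM in ArKI) and 2 of 3 basal cell genes (246 to 293 CPM in WT, 192 to 220 CPM in ArKI). Of 6 leukocyte genes 2 rose and 1 fell (181 to 242 CPM in WT, 270 to 423 CPM in ArKI), and the ciliated cell genes are given above. Of 4 stromal genes 2 rose and 1 fell (936 to 1026 CPM in WT, 972 to 1216 CPM in ArKI). No gene of these lists was at 0 in all samples of either genotype. Among the remaining lists, both tested genes of the Sertoli list rose (116 to 135 CPM in WT, 137 to 178 CPM in ArKI), 2 of 5 caput principal cell genes rose and 1 fell, 1 of 3 clear cell genes fell and 1 of 3 tested Leydig cell genes rose, with 1 gene each of the Sertoli and Leydig lists at 0 in all ArKI samples. The part of these cells in the changes of the transferases was not tested.

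**Figure D3:**
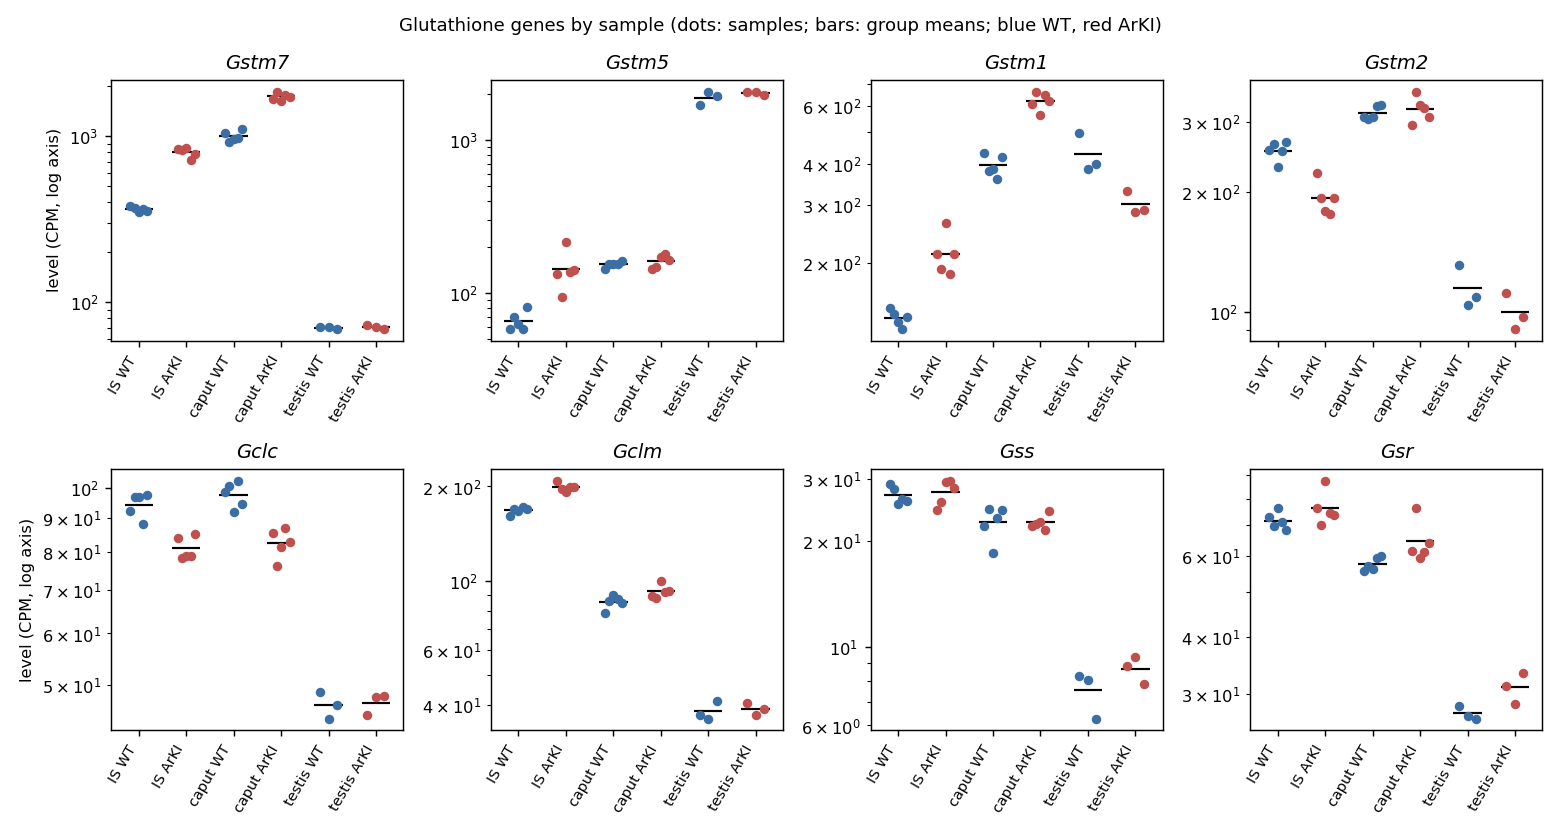
Level in CPM, on log axes, of 4 mu-class transferases (top) and of the 4 genes of glutathione synthesis and recycling (bottom) in each sample, with bars at group means, WT in blue and ArKI in red. *Gstm7* and *Gstm1* separate the genotypes in both IS and caput, *Gstm5* and *Gstm2* only in the IS, and *Gclc* is lower in ArKI in both segments.

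In the caput the set again moved both ways. Of 24 members tested, 7 were higher and 5 lower in ArKI, where 13.7% of all 13726 genes were higher and 14% lower. The members together summed to between 2981 and 3214 CPM in WT and between 4049 and 4344 CPM in ArKI, with no overlap, and their median log2 fold change was 0.12. Most of the rise in the sum again lay in *Gstm7* alone. No member passed the study's limits in either direction (2.43% of all genes were higher and 2.55% lower by them), by edgeR, DESeq2 or limma-voom, and none of the 24 differed by more than 2-fold at an unadjusted p below 0.05. *Gstt4*, too low for these fits, is given below.

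*Gstm7*, already the leading transferase of the caput, rose further. It measured 1052, 917, 967, 981 and 1105 CPM in WT and 1688, 1858, 1625, 1782 and 1728 CPM in ArKI, again with a wide gap between the groups (log2 fold change 0.78 ± 0.06, 1.72-fold, adjusted p = 7.0e-08). Its share of transferase CPM was 33.96 to 37.6% in WT and 42.6 to 45.7% in ArKI. *Gstm1* rose from 396 ± 29.6 to 620 ± 39.6 CPM (0.64 ± 0.06, adjusted p = 1.2e-06), *Gstm6* from 148 ± 4.24 to 190 ± 15.1 CPM (0.35 ± 0.06, adjusted p = 0.00021) and *Mgst1* from 233 ± 8.34 to 284 ± 15.6 CPM (0.28 ± 0.05, adjusted p = 0.00037). *Gstt3*, a theta-class enzyme, rose from 161 ± 8.24 to 213 ± 15.2 CPM (0.40 ± 0.05, adjusted p = 2.8e-05), and *Gsto1*, an omega-class enzyme that also reduces dehydroascorbate, from 13.4 ± 0.94 to 20.1 ± 4.02 CPM (0.58 ± 0.12, adjusted p = 0.0013). The genotypes did not overlap in these genes, which are named because they passed, and how often this holds over all genes was not counted. *Ggt5*, which cleaves glutathione conjugates such as leukotriene C4, rose only just past the threshold (3.23 ± 0.32 to 4.43 ± 0.67 CPM, 0.45 ± 0.16, adjusted p = 0.047), and it lost its call in 11 of 18 alternative analyses.

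Of the 5 that fell in caput, *Gstp1* and *Gclc* had the lowest adjusted p. *Gstp1*, the pi-class transferase, fell by 0.39 on the log2 scale (SE 0.07, adjusted p = 2.0e-04), from 52.0 ± 1.79 to 39.9 ± 3.99 CPM. It shares 33.7% of its 50-base windows with the neighbouring *Gstp2*, which held at most 4 counts in any caput sample. *Gclc* measured 98.6, 101, 91.8, 102 and 94.6 CPM in WT and 85.2, 76.0, 81.2, 87.0 and 82.8 CPM in ArKI, a fall by 0.25 (SE 0.05, adjusted p = 0.00071) with no overlap. *Gclm* measured 78.6, 86.0, 90.2, 87.4 and 84.9 CPM in WT and 89.6, 88.0, 100, 91.8 and 93.0 CPM in ArKI, which did not pass (0.11 ± 0.05, adjusted p = 0.12). The catalytic subunit thus fell in both segments. The modifier subunit passed in the IS and not in the caput, where it passed with scaling by library size only (0.14, adjusted p = 0.0295).

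For the other 2 genes of synthesis and recycling in caput no change was called. *Gss* measured 22.1, 24.6, 18.5, 23.2 and 24.6 CPM in WT and 22.1, 22.4, 22.7, 21.6 and 24.3 CPM in ArKI (log2 fold change -0.01 ± 0.08, adjusted p = 0.96). *Gsr* measured 55.7, 57.1, 56.2, 59.3 and 60.02 CPM in WT and 61.6, 76.5, 59.3, 61.3 and 63.9 CPM in ArKI (0.14 ± 0.07, adjusted p = 0.13). For *Gsr*, ArKI sample 2 stood apart. The same sample had the highest summed levels of stromal genes (1440 CPM, the other ArKI samples 632 to 866 CPM), of smooth muscle genes (1182 CPM, the others 560 to 775 CPM) and of leukocyte genes (307 CPM), and the lowest of caput principal cell genes (45246 CPM). Without it 7 members were higher and 4 lower in ArKI caput, with *Ggt5* and *Gsta4* lost and *Gstt2* gained.

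The remaining falls in caput were of lower certainty or concerned genes of the testis. *Gsta4*, which conjugates the lipid peroxidation product 4-hydroxynonenal, fell by 0.43 (SE 0.14, adjusted p = 0.045) from 38.2 ± 6.37 to 28.0 ± 5.73 CPM with overlapping groups. *Mgst3* fell by 0.35 (SE 0.11, adjusted p = 0.019) from 14.3 ± 1.38 to 11.3 ± 1.42 CPM, also with overlap. Leaving out single samples removed the call of *Gsta4* in 6 instances and of *Mgst3* in 2. *Gsto2* fell by 0.90 (SE 0.22, adjusted p = 0.0049), from 2.36 ± 0.42 to 1.25 ± 0.17 CPM, against 280 ± 10.3 CPM in WT testis.

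*Gstt4*, chosen for description after its values were seen, was too low for the test across genes in caput but showed the same direction as *Gsto2*. It had 8 to 11 counts in each WT caput sample and 0 to 2 in each ArKI sample, against 305 ± 22.4 CPM (n = 3) in WT testis. The 48 counts in WT and 5 in ArKI gave a ratio of 0.098, with an exact 95% counting interval of 0.030 to 0.244. A two-sided exact permutation test over samples gave p = 0.00794, the smallest possible with 5 against 5, in a family of 11 such tests on members left out of the fits. In IS, *Gsto2*, also left out there, had 7 to 13 counts in WT and 2 to 6 in ArKI (exact permutation p = 0.00794), a ratio of 0.527 (0.299 to 0.902). This gene was chosen in the same way. The summed sperm marker genes were at 11.8 to 81.4 CPM in WT IS and 2.03 to 6.09 CPM in ArKI IS, and their part in its values was not tested. *Gstm5* and *Gstm1*, also high in testis, did not fall in either segment.

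The 11 genes of sperm and late spermatids, which like *Gstt4* and *Gsto2* are high in testis, all fell in ArKI caput, by log2 fold changes of -3.63 to -1.10 (median -3.09). Their summed level was 257 to 405 CPM in WT caput and 39.1 to 111 CPM in ArKI caput, and none was at 0 in either group. In ArKI testis the same 11 genes lay between 0.00 and 0.18 on the log2 scale. Leukocyte genes also moved in caput, where 2 of 5 tested rose (summed level 125 to 161 CPM in WT, 192 to 307 CPM in ArKI). Of the other lists, 1 gene rose and 1 fell among the 5 of caput principal cells and among the 3 of clear cells, 1 of 6 rose for IS principal cells, and 1 of 2 tested rose for each of the Leydig and Sertoli lists, the last with 50.2 to 58.4 CPM in WT and 83.4 to 99.8 CPM in ArKI. The part of sperm RNA or of these cells in the changes of the members was not tested.

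**Figure D4:**
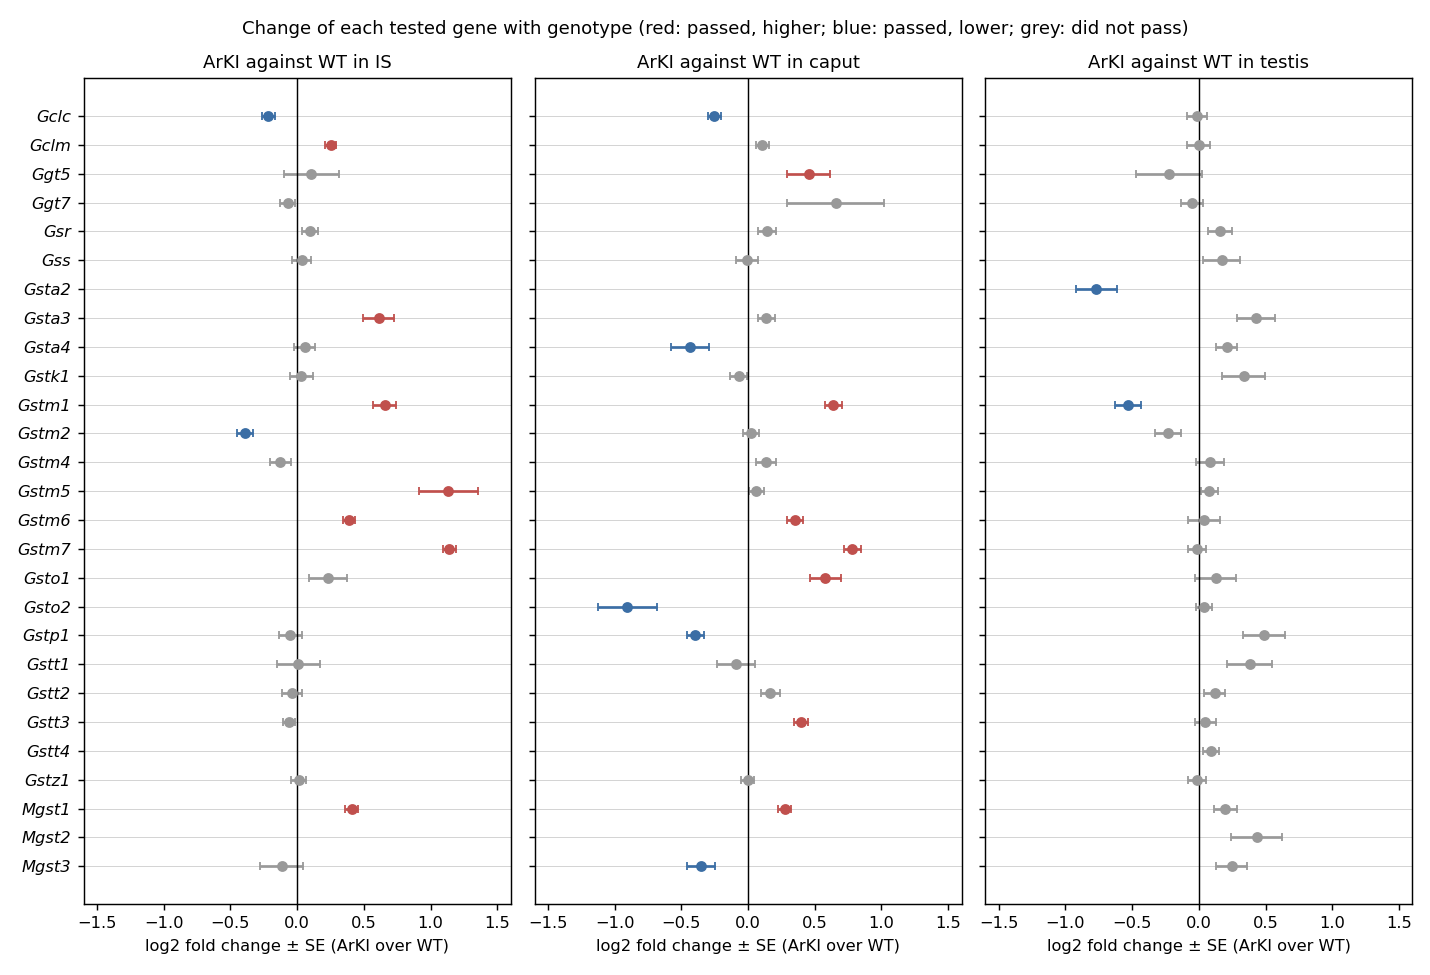
Log2 fold change of ArKI over WT with its standard error for each member tested in IS, caput and testis, in red where it passed and was higher, blue where it passed and was lower and grey otherwise. *Gstm7* and *Gstm1* are red in both segments, *Gclc* is blue in both, and *Gstm1* is blue in testis.

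In testis few members changed. Of 27 members tested, none passed as higher and 2 as lower in ArKI, where 1.64% of all 15838 genes were higher and 0.328% lower. At an unadjusted p below 0.05, 7 members were higher and 3 lower in edgeR, and the shares of all genes at that threshold were not counted. DESeq2 and limma-voom also called none higher at an adjusted p below 0.05. Past the study's limits there was no member in either direction by any of these tools (0.751% of all genes were higher and 0.0821% lower), nor one that differed by more than 2-fold at an unadjusted p below 0.05. *Gstm1*, which rose in both epididymal segments, fell here. It measured 498, 386 and 400 CPM in WT and 330, 286 and 289 CPM in ArKI, without overlap (-0.53 ± 0.10, adjusted p = 0.013), but the call was lost with scaling by library size only and without ArKI sample 3. *Gsta2*, an alpha-class enzyme found almost only in testis here, measured 6.55, 6.97 and 6.45 CPM in WT and 3.72, 4.02 and 4.17 CPM in ArKI (-0.77 ± 0.15, adjusted p = 0.0057). Part of the reads of *Gsta2* may have been left uncounted as not unique, since 49.8% of its 50-base windows occur in other genes, most in *Gsta1*, which had at most 1 count in any sample. Among marker lists, 2 of 5 Leydig cell genes rose in ArKI testis (summed level 654 to 816 CPM in WT, 1036 to 1096 CPM in ArKI). Of the IS principal cell genes 1 of 4 tested rose (413 to 502 CPM in WT, 1419 to 1628 CPM in ArKI) and 1 of 4 tested caput principal cell genes fell (68.4 to 73.3 CPM in WT, 44.6 to 54.5 CPM in ArKI), and 1 of 4 genes rose in each of the stromal and smooth muscle lists. Their part in these values was not tested.

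The leading testis transferase did not pass. *Gstm5* measured 1704, 2074 and 1940 CPM in WT testis and 2086, 2075 and 1977 CPM in ArKI testis (adjusted p = 0.67). *Gstm7* was low in both, at 71.0, 71.4 and 69.0 CPM in WT and 73.5, 70.6 and 68.9 CPM in ArKI. For synthesis, *Gclc* measured 48.8, 44.5 and 46.6 CPM in WT and 45.1, 48.0 and 48.2 CPM in ArKI, and *Gclm* 37.2, 36.2 and 41.4 CPM in WT and 40.6, 37.2 and 39.0 CPM in ArKI. These genotypes overlapped. *Gss* stood at 8.31, 8.09 and 6.28 CPM in WT and 8.85, 9.37 and 7.85 CPM in ArKI, and *Gsr* at 28.3, 26.9 and 26.5 CPM in WT and 31.2, 28.5 and 33.4 CPM in ArKI. *Gsr* was the only one of these 4 with every ArKI sample above every WT sample, and it did not pass (adjusted p = 0.48). The 25 members that did not pass ranged from -0.23 to 0.49 on the log2 scale.

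Whether the genotype effect differed between the segments was tested in all 20 epididymal samples as an interaction. Of 24 members, 2 had a higher effect in caput than in IS and 4 a lower one, where 7.38% and 7.77% of all 14329 genes did. *Gstm5* differed most (-1.07 ± 0.22, adjusted p = 0.0026). In caput it measured 144, 154, 155, 156 and 162 CPM in WT and 144, 149, 171, 181 and 165 CPM in ArKI, groups that overlapped (0.06 ± 0.06, adjusted p = 0.46). The same ciliated cell genes that moved with it in the IS summed to 1.73 to 2.99 CPM in WT caput and 1.35 to 3.42 CPM in ArKI caput. *Gstm7* rose in both segments and by less in caput (-0.36 ± 0.08, adjusted p = 0.0027). *Gsta3* (-0.48 ± 0.13, adjusted p = 0.016) rose in the IS and was at 0.14 ± 0.06 in caput (adjusted p = 0.11). *Gstp1* (-0.35 ± 0.11, adjusted p = 0.034) fell in caput and was at -0.05 ± 0.09 in IS.

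In the other direction, *Gstt3* had the most certain difference between segments (0.46 ± 0.07, adjusted p = 4.3e-05). It was at -0.06 ± 0.04 in IS and rose in caput, with 208 ± 11.2 CPM in IS and 161 ± 8.24 CPM in caput of WT mice and 199 ± 7.05 and 213 ± 15.2 CPM in ArKI mice. *Gstm2* (0.41 ± 0.09, adjusted p = 0.0013) fell in the IS and was at 0.02 ± 0.06 in caput. For *Gclm* the interaction did not pass (-0.15 ± 0.06, adjusted p = 0.099), although it did without caput WT sample 1 (adjusted p = 0.0399) or caput ArKI sample 3 (adjusted p = 0.0325), and the effects on *Gclc* (-0.04 ± 0.06, adjusted p = 0.76), *Gstm1* (-0.02 ± 0.11, adjusted p = 0.94) and *Gstm6* (-0.04 ± 0.07, adjusted p = 0.79) were not shown to differ between segments either. *Gsta4* did not pass by edgeR (-0.49 ± 0.17, adjusted p = 0.059). It passed with DESeq2 (adjusted p = 0.0272), with library size only in edgeR (adjusted p = 0.0416) and without some single caput samples. *Ggt7* and *Gstm4* also gained an interaction call under some alternatives.

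The mu-class genes lie in a row at chr3:107895821-108044894 (GRCm38), in the order *Gstm5*, *Gstm7*, *Gstm6*, *Gstm3*, *Gstm2*, *Gstm1* and *Gstm4*, all on the - strand except *Gstm5*. Neighbours in this row did not move as a block. In the IS the log2 fold changes along it were 1.13, 1.14 and 0.39 for the first 3, then -0.39 for *Gstm2*, 0.66 for *Gstm1* and -0.13 for *Gstm4*, with *Gstm3* at 0 or 1 count in every IS sample. In caput the order of values was 0.06, 0.78, 0.35, 0.02, 0.64 and 0.14, with *Gstm3* again too low to be tested. In testis *Gstm1* alone passed among them. These genes resemble each other, but most of their sequence is their own at the length of the reads: the share of 50-base windows found in another gene was 0% for *Gstm5* and *Gstm4*, 0.532% for *Gstm7*, 5.97% for *Gstm6*, 5.65% for *Gstm2*, 28.8% for *Gstm3* and 18.9% for *Gstm1*, where 14.1% of the windows were found in the pseudogene *Gstm2-ps1*.

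**Figure D5:**
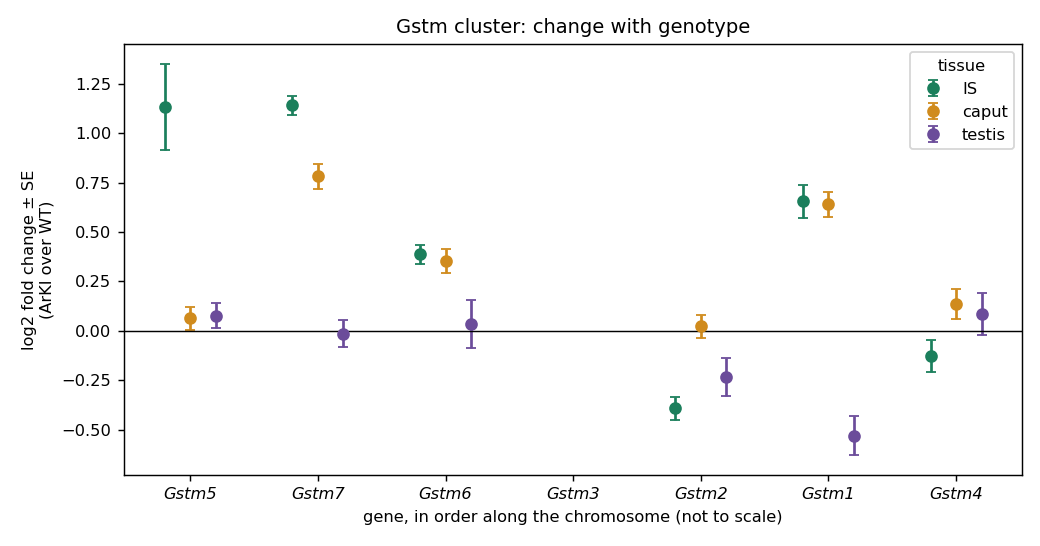
Log2 fold change of ArKI over WT with its standard error for the mu-class genes in their order along chromosome 3 (not to scale), in IS, caput and testis. *Gstm7*, *Gstm6* and *Gstm1* are above 0 in both epididymal segments, while *Gstm2* lies at -0.39 in IS and 0.02 in caput, and *Gstm1* lies at -0.53 in testis. *Gstm3* was too low to be tested.

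The rest of the glutathione pathway was read from 5 lists with 62 genes in the tables. In IS 13 of the 60 tested were higher and 12 lower in ArKI, and in caput 10 of 58 were higher and 11 lower, shares of 21.7% and 20% in IS and 17.2% and 19% in caput that can be set beside the backgrounds of all genes given above. In testis 2 of 60 were higher (*Dpep1*, a dipeptidase that acts on the product of the gamma-glutamyl transferases, at 0.64 ± 0.11, and *Adh5*, which handles the glutathione adduct of formaldehyde, at 0.35 ± 0.08) and none lower by edgeR. Over all 15838 genes tested in testis 1.64% were higher and 0.328% lower. At an unadjusted p below 0.05, 13 of the 60 were higher and 2 lower, and the shares of all genes at that threshold were not counted.

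Genes of cysteine supply went both ways in each segment, 2 of 10 higher and 2 lower. *Slc1a4*, a neutral amino acid transporter, rose in IS (0.50 ± 0.09) and caput (0.75 ± 0.07). *Slc3a2*, the heavy chain of several amino acid transporters including the cystine exchanger, fell by 0.31 (SE 0.04) in IS and by 0.42 (SE 0.07) in caput. *Cth*, which makes cysteine from cystathionine, rose in IS (0.28 ± 0.09), and *Mat2a*, which makes S-adenosylmethionine, fell by 0.31 (SE 0.06) in caput.

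Among 8 tested genes of breakdown, *Chac2*, which cleaves glutathione inside cells, was the only one to pass in IS (0.84 ± 0.14, higher). In caput *Anpep*, the aminopeptidase that splits cysteinylglycine, was higher by 1.85 ± 0.20 on the log2 scale, while *Ggct* fell by 0.73 (SE 0.10) and *Lap3* by 0.36 (SE 0.12). Of the export list, *Abcc2*, a pump of glutathione conjugates, rose in IS (1.02 ± 0.30), where *Abcc4* fell by 0.58 (SE 0.08) and *Abcc3* by 0.31 (SE 0.10), with 2 of 8 higher and 3 lower. In caput *Cftr*, an anion channel that also conducts glutathione, fell by 1.14 (SE 0.18) and *Abcc3* rose (0.47 ± 0.07), the only 2 of 7 to pass.

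Other enzymes that use glutathione split likewise, with 4 of 18 higher and 3 lower in IS and 4 of 17 higher and 3 lower in caput. The largest of those that passed in IS were *Clic3* (down by 0.63) and *Clic4* (down by 0.51), both of the glutathione transferase fold, and the prostaglandin E synthase *Ptges* (down by 0.44). In caput they were *Clic6* (0.62 ± 0.10), the glutaredoxin *Glrx*, which fell by 0.53 (SE 0.07), and *Adh5* (0.43 ± 0.06). The list of NRF2 regulators and targets outside the glutathione genes had 4 of 16 higher and 4 lower in IS, with a median of -0.04 on the log2 scale. There *Osgin1* fell by 0.65 (SE 0.13) and the quinone reductase *Nqo1* by 0.48 (SE 0.12), while malic enzyme *Me1* rose (0.64 ± 0.11). In caput 2 of 16 were higher and 3 lower, with the pentose phosphate genes *Tkt* down by 0.48 and *G6pdx* down by 0.36 and *Taldo1* up (0.26 ± 0.06).

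The members at the bottom of the scale complete the set. *Gsta1* had at most 1 count in any sample, and 90.5% of its 50-base windows occur in other genes, so its reads may have been left uncounted as not unique. *Gstm3* had at most 5 counts and *Gstp2* at most 4 in any sample, and *Ggt6* reached 14 counts in the IS and 12 in the caput and was left out by the filter in every comparison. *Gsta2* and *Mgst2* had at most 3 and 2 counts in any epididymal sample and were tested only with testis. *Ggt6* in IS had 0 to 9 counts in WT and 3 to 14 in ArKI (exact permutation p = 0.0556). At depths of this kind 3 counts correspond to between 0.238 and 0.641 CPM in ArKI caput and between 0.211 and 0.258 CPM in WT testis. Lower levels rest on still fewer counts, and the smallest difference that could be detected was not measured.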

How the data were processed

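The authors aligned single-end reads of 50 bases to mm10 with STAR and deposited raw counts of uniquely mapped reads per RefSeq gene, made with Subread 1.5.1 after bcl2fastq 1.8.4. The labels name the TruSeq RNA v2 kit and the paper's methods a stranded one, so whether reads of antisense partners were separated is not known. Genes were filtered by filterByExpr (minimum count 10, total 15), scaled by TMM and tested with edgeR 4.0.16 in R 4.3.3 (robust quasi-likelihood, Benjamini-Hochberg), for each tissue by itself, in the WT samples between tissues and in the 20 epididymal samples for the interaction. The fits were tested on simulated data. In place of the ROTS test of the paper's methods, which acts on voom values, edgeR was used on counts, with limma 3.58.1 and DESeq2 1.42.0 as alternatives. Levels are CPM, and RPKM uses exon lengths of GENCODE on GRCm38, the build of mm10. Members that the filter left out and that had more than 3 counts in some sample were tested by two-sided exact permutation on log2(CPM + 0.5), between genotypes and between WT caput and WT IS. Counting intervals cover counting error only. Shared windows are runs of 50 bases of a gene's transcripts that occur in those of another gene.

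The members and lists were chosen with earlier results of these data known. Values in every sample are given for members past the study's limits, for *Gclc*, *Gclm*, *Gss* and *Gsr* and for the leading transferase of each WT tissue, and a fold change for every other member that passed between genotypes or in the interaction. From other lists at most 3 genes per tissue with the largest changes that passed are named. Values in every sample of *Gstm1*, *Gsta2* and *Ggt7* and the counts of *Gstt4* are given beyond that rule and were chosen after they were seen. Replicates are numbered samples of separate mice per the paper's methods. IS and caput came from 5 mice of each genotype, and the labels do not say whether a shared number marks the same mouse, so the fits across segments treat the samples as independent. Between WT IS and WT caput, deviations of samples with the same number correlated at -0.003 to 0.183, with a mean of 0.091 against -0.023 for other numbers. Between ArKI IS and ArKI caput they correlated at -0.086 to 0.175, with a mean of 0.022 against -0.004. These values do not settle whether a shared number marks the same mouse. No 2 samples of a group agreed within sampling noise (lowest chi-square per degree of freedom 2.43). The number of table columns that belong to no sample was 0. ChIP-seq data were not analysed here. Figures were drawn with matplotlib. The level of the gene changed by the knock-in, and a motif search that concerns it, are not reported here.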

Additional observations from a re-analysis of the deposited data

Results flagged for a closer look

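In 4 of 94 groups of 5 samples 1 sample stood apart from the other 4, where about 4.7 would by chance. They were *Gsr* in caput ArKI sample 2 (76.5 CPM, the others 59.3 to 63.9), *Gsta3* in IS WT sample 1 (32.7 CPM, the others 22.1 to 23.6), *Gsto1* in caput ArKI sample 4 (27.0 CPM, the others 16.4 to 19.4) and *Gstp1* in caput ArKI sample 3 (46.8 CPM, the others 37.1 to 39.7).

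The genotype effect differed between caput and IS in 6 members by the interaction test of edgeR. The difference of log2 fold changes, caput less IS, was -1.07 for *Gstm5* (adjusted p = 0.0026), -0.48 for *Gsta3* (adjusted p = 0.016), -0.36 for *Gstm7* (adjusted p = 0.0027), -0.35 for *Gstp1* (adjusted p = 0.034), 0.41 for *Gstm2* (adjusted p = 0.0013) and 0.46 for *Gstt3* (adjusted p = 4.3e-05).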

How the results depend on the processing

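The members that passed, with *Gclc*, *Gclm*, *Gss* and *Gsr* in IS and caput, were followed one by one. Of their 2016 values under the alternatives, 1948 kept their direction and side of the threshold, 57 lost the call, 1 gained it (*Gclm* in caput with library size only) and 10 changed sign. Over all members and comparisons a call was gained 42 times, by 11 genes. Sign changes under another scaling were *Gstz1* in testis against IS (-0.21 with library size only, -0.28 with upper quartile factors), *Gstm1* in testis against caput (-0.19 and -0.30) and *Gsta4* in testis against caput (-0.020 with upper quartile factors). *Gss* in caput, which never passed, was at 0.028 with library size only and 0.0008175 with a replicate block, and between -0.071 and 0.022 when single samples were left out. Past the study's limits in IS there was 1 member with a replicate block and 1 to 2 without single samples. *Gstm5* was the one lost, with each sample but ArKI 2 and WT 5 left out, at an adjusted p of up to 0.015, or without ArKI 3 because the fold fell below 2. In caput 1 member, *Gstt4*, passed those limits with no filter. Members lower in caput were 3 at an adjusted p below 0.01 and 3 to 5 without single samples, with *Gsta4* and *Mgst3* lost without WT 2 or ArKI 5. Members lower in testis were 1 with library size only and 1 at an adjusted p below 0.01, and 1 to 2 without single samples, with *Gstm1* lost with library size only (adjusted p = 0.13) and without ArKI 3 (adjusted p = 0.118). Members higher in testis were 0 to 1 without single samples, with *Gsta3* gained without WT 1. Members lower in the interaction were 2 at an adjusted p below 0.01. *Gstp1* lost its interaction call in 8 of 27 alternatives. The cause of these changes was not tested. The replicate numbers are shared only as numbers, and the replicate block left 7 higher and 2 lower members in IS, 7 and 5 in caput and 0 and 2 in testis, but in caput *Ggt5* lost its call (adjusted p = 0.0939) and *Ggt7* gained one (0.66, adjusted p = 0.0221). With 3 samples a group in testis, and 4125768 counts in the shallowest caput sample, small changes of low members could not be seen.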
